A study of Mus musculus with 2 samples.

Results

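The genes described here encode membrane carriers for sugars, lactate and other monocarboxylates, nucleosides, nucleotide sugars, peptides, vitamins, fatty acids and organic ions. They were taken by gene symbol alone: the solute carrier families Slc2a, Slc5a, Slc15a, Slc16a, Slc17a, Slc19a, Slc22a, Slc23a, Slc27a, Slc28a, Slc29a, Slc35a to Slc35f, Slc46a and Slc47a, and all genes whose symbol starts with Slco. The rule found 144 of the 34295 genes in the expression table. Of these, 141 are protein coding in the GENCODE M21 annotation, and the exceptions are Slc22a13b-ps, Slc2a4rg-ps and Slco6b1. Slc2a4rg-ps is named after a regulator of a glucose carrier gene and not after a carrier.

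RNA was measured in wild-type C57BL/6J mouse cells of 2 kinds, with 1 library of embryonic fibroblasts (MEF) and 1 of bone marrow derived macrophages (BMDM). The fibroblasts came from E13.5 to E14.4 embryos without head and red tissue, were sorted to be free of CD45, CD11b and F4/80, and were used at passage 4 to 7 from a culture of 100000 cells in DMEM with 10% serum. The macrophages were differentiated for 6 days in RPMI with 10% serum and 30% medium conditioned by L929 cells, a mouse fibroblast line that secretes the macrophage growth factor CSF1, and 750000 cells were plated. The sources used here give neither the age of the marrow donors nor whether animals were pooled. Since the base medium, the L929 factors and the cell number differ along with the cell type, they cannot be told apart from it as sources of any difference below.

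Values are TPM, a transcript abundance corrected for transcript length and scaled to a common total, so that genes can be compared with each other. The 2 columns summed to 999545 and 999609 TPM. Since this unit holds no read depth, no precision can be attached to a single value. Below, "called higher" in a library means that (TPM + 1) exceeded that of the second library 4-fold or more, with a level of 5 TPM or above. Log2 ratios are those of TPM plus 1, MEF over BMDM, and the added 1 shrinks the ratios of low genes. Fold differences given beside TPM values use the TPM with nothing added. With 1 library of each kind there is no replicate error and no test. All 10 fibroblast markers examined were called higher in MEF and all 10 macrophage markers in BMDM. The summed TPM of the macrophage markers was 39.1 in MEF against 17757 in BMDM, and that of the fibroblast markers 8745 against 14.2. Of 8 neutrophil markers, 4 were called higher in BMDM, led by S100a9 at 268 TPM against a listed 0. Mpo, Elane and Retnlg were also higher in value in BMDM, at 2.83, 2.34 and 2.01 TPM, without a call. In MEF, Mpo was at 0.0802 TPM and Elane and Retnlg were listed at 0. The neutrophil marker Ly6g was listed at 0 in both. Of 4 skeletal muscle markers, Acta1 and Des were called higher in MEF, at 70.8 TPM against 0.721 and 6.11 against a listed 0, while Myod1 and Myog were listed at 0 in both. Of 3 chondrocyte markers, Col2a1 and Sox9 were called higher in MEF, at 6.11 and 5.03 TPM against a listed 0. Whether other cells were admixed, and what part they had in the results below, was not tested. In a bulk culture, fewer cells with a transcript and less of it in each cell cannot be told apart.

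Solute carriers move small molecules across membranes down their own gradients or by coupling to sodium or proton gradients. Most sugar, lactate and nucleoside carriers sit in the plasma membrane, the nucleotide sugar carriers sit in the Golgi and endoplasmic reticulum where they feed glycosylation, and several peptide, nucleoside and sialic acid carriers sit in lysosomes. Macrophages are known for a large lysosomal system and for active glycolysis, and fibroblasts for the secretion of glycosylated matrix.

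Detection, set at 1 TPM in either library, was met by 69 of the 144 genes, and 56 reached 5 TPM. Among these 56, 8 were called higher in MEF and 12 in BMDM, which is 14.3% and 21.4%. Over all 11191 genes of the table at 5 TPM or more, 14.3% were called higher in MEF and 8.77% in BMDM, together 23.1%. The share of transporter genes called on the fibroblast side equalled the background, and the share on the macrophage side was above it. The fibroblast share fell below the background with a pseudocount of 5, at 3 of 56 against 896 of 11191 genes. With a minimum of 10 TPM it was below at 4 of 46 against 1237 of 9642. It was also below at 2-fold, with 11 of 56 against 2637 of 11191, and at 8-fold, with 5 against 1071. Under median-of-ratios scaling it was below at 7 of 57 against 1537 of 11267. With a pseudocount of 0.1 it was above, at 9 of 56 against 1710 of 11191. It was also above after rescaling without mitochondrial and the most abundant genes, at 9 of 59 against 1676 of 11561. With no minimum it was above at 9 of 144 against 1781 of 34295. With a minimum of 1 TPM it was nearly level, at 9 of 69 against 1781 of 13606. Among 122 other solute carrier genes at 5 TPM, 13 were called higher in MEF and 10 in BMDM, which is 10.7% and 8.20%. The median log2 ratio of the 69 detected transporter genes was 0.05, beside 0.28 for all detected genes. It turned to -0.12 under median-of-ratios scaling and to -0.071 after rescaling without mitochondrial and the most abundant genes. The median of all detected genes moved too, to 0.11 and 0.16. Median-of-ratios scaling raises all BMDM values by 0.18 in log2. This is the median log2 ratio, with nothing added to TPM, of the 8363 genes at 5 TPM in both libraries. With 1 added, the ratios of genes low in BMDM move less, and that of Slc5a7, listed at 0 there, stayed at 2.81. The 144 genes summed to 1284 TPM in MEF and 2428 TPM in BMDM. A single gene, Slc15a3, made up 22.4% of the sum in BMDM, whereas the highest gene in MEF, Slc35a4, made up 9.0%.

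**Figure D1:**
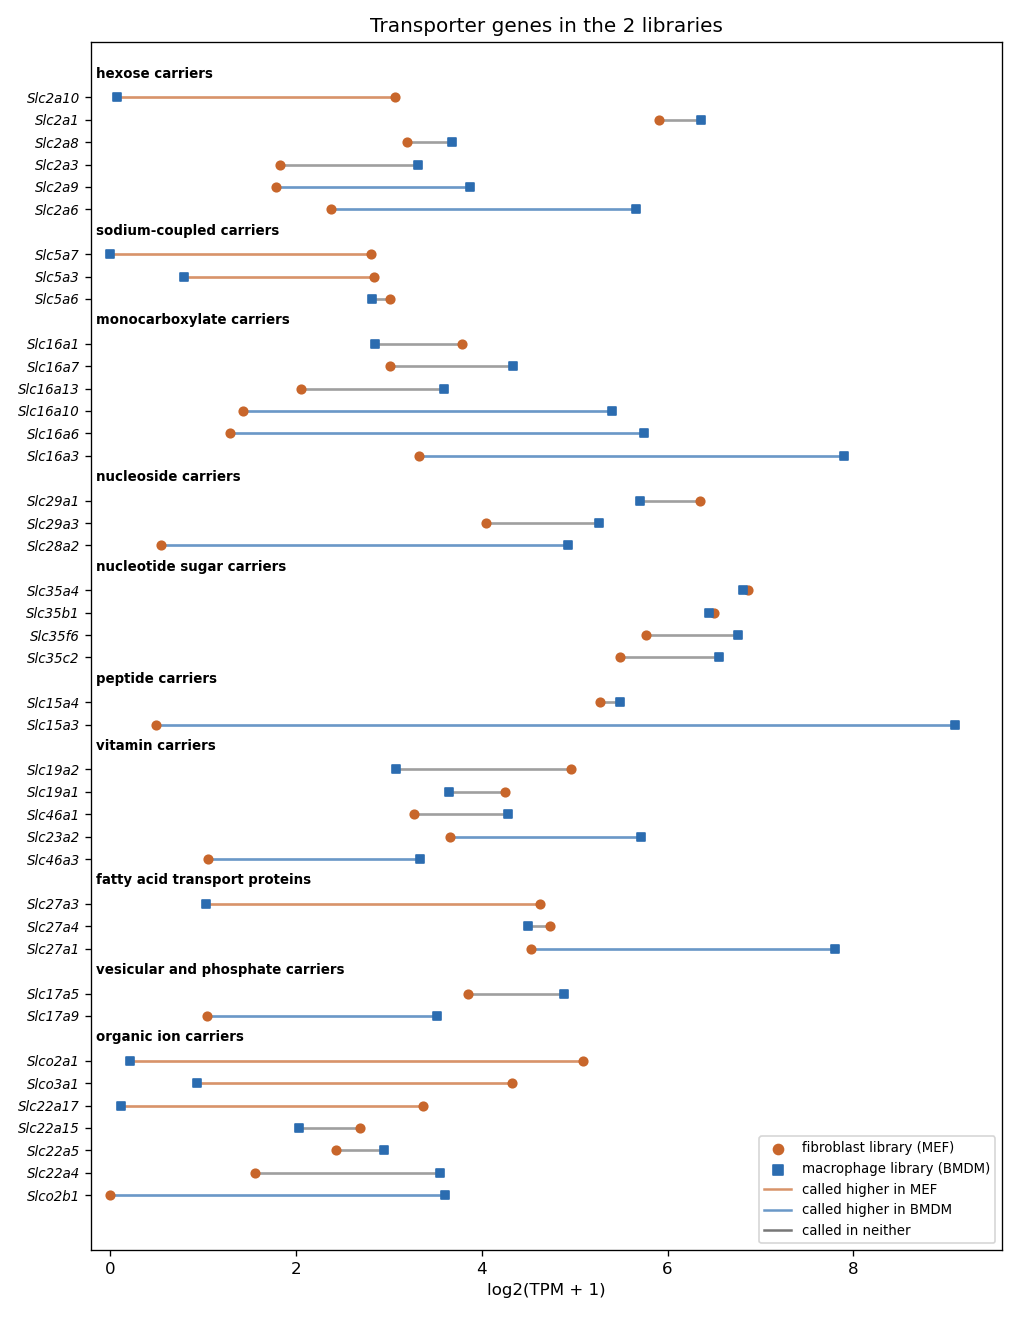
Level of the named transporter genes as log2(TPM + 1) in the fibroblast library (circles) and the macrophage library (squares), grouped by role, with a line coloured by the library in which the gene was called higher and grey where it was called in neither. Slc15a3 has the longest line, from 0.414 TPM in MEF to 544 TPM in BMDM, and the nucleotide sugar carriers have short ones.

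Promoter windows were examined for 3 pairs of paralogs called in opposite directions, from a RefSeq table that covered 117 of the 144 genes. The pair shown, because 1 gene was nearly absent where the other was present, is that of the organic anion carriers Slco2a1, the prostaglandin carrier, at 33.0 TPM in MEF and 0.163 in BMDM, and Slco2b1, a carrier of steroid conjugates, listed at 0 in MEF and at 11.2 TPM in BMDM. Their 250 bases upstream of the first RefSeq transcript start (build GRCm38.p6) are shown 5′ to 3′ on the gene's own strand, with matches to the searched motifs in capitals. Slco2a1 is read from chr9:103008237-103008486 on the plus strand and Slco2b1 from chr7:99711341-99711590 on the minus strand. The Slco2a1 start used lies inside the gene's longer GENCODE span, chromosome 9, 102988712 to 103096002.
Slco2a1: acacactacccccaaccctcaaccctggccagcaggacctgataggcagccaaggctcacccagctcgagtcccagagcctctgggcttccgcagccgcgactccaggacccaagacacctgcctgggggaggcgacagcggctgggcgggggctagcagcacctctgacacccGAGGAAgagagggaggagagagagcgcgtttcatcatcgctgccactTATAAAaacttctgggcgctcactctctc
Slco2b1: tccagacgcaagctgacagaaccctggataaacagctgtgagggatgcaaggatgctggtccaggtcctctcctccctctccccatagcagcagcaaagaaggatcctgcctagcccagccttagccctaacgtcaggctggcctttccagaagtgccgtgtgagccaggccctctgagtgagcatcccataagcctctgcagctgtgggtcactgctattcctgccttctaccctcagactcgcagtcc

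Searched on both strands were a PU.1 core (GAGGAA), an AP-1 site (TGANTCA), a C/EBP site (TTGCNNAA), an E-box (CACGTG), a TEAD site (GGAATG) and a TATA box (TATAAA). None of these motifs contains another. The Slco2a1 window held 1 PU.1 core and 1 TATA box, and the Slco2b1 window held no match. Over all 32851 windows of 250 bases in the table, 23.3% held the PU.1 core and 12.4% the TATA box. The AP-1, C/EBP, E-box and TEAD motifs were in 6.75%, 9.56%, 6.02% and 12.6% of windows. The Slco2a1 window had 12 CpG dinucleotides and 63.2% G and C, against 4 and 58.0% for Slco2b1. The windows of the other split pairs, Slc2a10 with Slc2a6 and Slc27a3 with Slc27a1, held none of these motifs. Slco2a1 has 1 start in the table and Slco2b1 has 3. A letter match in a window does not show binding, and binding was not measured.

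The hexose carriers had the same leading gene in both libraries, and 3 family genes reached 5 TPM in MEF and 5 in BMDM. Slc2a1, which encodes GLUT1, the common glucose carrier of growing cells, was the highest of the family in both libraries, at 58.9 TPM in MEF and 81.4 TPM in BMDM, and was called in neither. Slc2a6, encoding the lysosomal GLUT6, was called higher in BMDM, at 49.6 TPM against 4.21, a difference of 11.8-fold. Slc2a9, which encodes a urate carrier, stood at 13.6 TPM in BMDM and 2.45 in MEF and lay close to the 4-fold limit with a log2 ratio of -2.08. Slc2a10, encoding GLUT10, was the 1 family gene called higher in MEF, at 7.40 TPM against 0.0553.

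The neuronal-type glucose carrier gene Slc2a3 stood at 8.93 TPM in BMDM and 2.55 in MEF, which did not pass the rule. Slc2a8, an intracellular hexose carrier gene, was at 11.8 and 8.19 TPM. Both were higher in BMDM in value, as Slc2a1 was, but short of 4-fold. The family summed to 88.1 TPM in MEF and 167 TPM in BMDM. Slc2a1 gave 66.9% of the sum in MEF and 48.6% in BMDM, and Slc2a6 gave 4.78% and 29.7%. The insulin-responsive carrier gene Slc2a4 was at 0.306 TPM in MEF and listed at 0 in BMDM, and the fructose carrier gene Slc2a5 was listed at 0 in MEF and at 0.143 TPM in BMDM. The proton-coupled inositol carrier gene Slc2a13 stood at 2.12 TPM in MEF and was listed at 0 in BMDM.

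Among 13 chosen sugar and lactate enzymes and regulators, Hk3 and Pdk1 were called higher in BMDM and Ldhb in MEF. Hk3, which encodes a hexokinase that traps glucose after entry, stood at 258 TPM in BMDM and 0.227 in MEF. Hk1 and Hk2 were at 90.4 and 23.9 TPM in BMDM and 49.0 and 11.5 TPM in MEF and did not pass the rule. Pdk1, whose kinase restrains pyruvate entry into mitochondria, was at 56.8 TPM against 8.12. Txnip, whose product drives GLUT1 from the cell surface, was at 219 TPM in BMDM and 63.0 in MEF, below the limit.

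The sodium-coupled carriers were low. Of 3 genes at 5 TPM, 2 were called, both higher in MEF, beside 14.3% of all genes on that side. Neither was called with a pseudocount of 5, a minimum of 10 TPM or an 8-fold threshold. Slc5a7, which encodes the high-affinity choline carrier of cholinergic neurons, was at 6.01 TPM in MEF and listed at 0 in BMDM. Of 5 neuron and glia markers, Tubb3 was called higher in MEF, at 20.8 TPM against 0.163, and Mbp in BMDM, at 16.5 TPM against 1.22. Gfap was at 0.496 and 0.432 TPM in MEF and BMDM, and Snap25 and Rbfox3 were listed at 0 in both. Whether neurons or glia were present was not tested. Slc5a3, encoding a myo-inositol carrier, was at 6.17 TPM in MEF and 0.739 in BMDM. Its log2 ratio of 2.04 fell to 1.96, under the limit, with median-of-ratios scaling. Slc5a3 overlaps Mrps6 on the same strand over 29152 bases, and Mrps6 was also higher in value in MEF, at 95.0 TPM against 19.04, so how reads were divided between this pair is uncertain. The biotin and pantothenate carrier gene Slc5a6 was alike in both, at 7.08 and 6.05 TPM. It overlaps Atraid, at 117 TPM in MEF and 82.6 in BMDM, on the opposite strand over 613 bases. The intestinal glucose carrier gene Slc5a1 was listed at 0 in both libraries. The kidney form Slc5a2 was listed at 0 in MEF and at 0.336 TPM in BMDM. Of the 13 genes of this family, 9 were not detected at 1 TPM.

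The leading gene of the monocarboxylate carriers differed between the libraries. Slc16a3, encoding MCT4, the lactate exporter of glycolytic cells, stood at 238 TPM in BMDM and 9.01 TPM in MEF, a difference of 26.4-fold, and ranked 626 among all genes of the macrophage library. Its locus is chromosome 11, 120948480 to 120960868, plus strand (GRCm38, ENSMUSG00000025161). Slc16a6, which encodes the ketone body carrier MCT7, was at 52.6 TPM in BMDM against 1.44. Slc16a10, encoding the aromatic amino acid carrier TAT1, was at 41.3 TPM against 1.70. All 3 were called higher in BMDM.

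Slc16a1, encoding the broad lactate carrier MCT1, was at 12.8 TPM in MEF and 6.22 in BMDM, and Slc16a7, encoding MCT2, at 7.08 and 19.2 TPM. Neither passed the rule. In MEF, Slc16a1 was the highest gene of the family with 22.9% of its 55.9 TPM, whereas in BMDM Slc16a3 held 64.4% of 370 TPM. Slc16a4 stood at 4.49 TPM in MEF and was listed at 0 in BMDM, just under the minimum of 5 TPM. Slc16a11 and Slc16a13 are neighbours 372 bases apart on chromosome 11. Slc16a13 was at 11.1 TPM in BMDM and 3.17 in MEF, and Slc16a11 at 0.421 and 1.42.

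The chaperones that bring MCT1 and MCT4 to the cell surface were abundant in both libraries. Bsg, encoding basigin, stood at 1158 TPM in MEF and 494 in BMDM, and Emb, encoding embigin, at 62.6 and 57.4 TPM. None of the 3 chaperone genes was called. Ldha, encoding the lactate dehydrogenase subunit that favours lactate, was at 864 TPM in MEF and 1422 in BMDM and was not called. Ldhb, encoding the subunit that favours pyruvate, was at 59.0 TPM in MEF and 5.37 in BMDM and was called higher in MEF. Of the 6 chosen thyroid hormone genes, only 2 were detected. Both were called higher in MEF, beside 14.3% of all genes at 5 TPM. Dio3, encoding the enzyme that inactivates thyroid hormone, was at 12.8 TPM in MEF against a listed 0. Thra, encoding a thyroid hormone receptor, was at 54.7 TPM against 8.17.

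**Figure D2:**
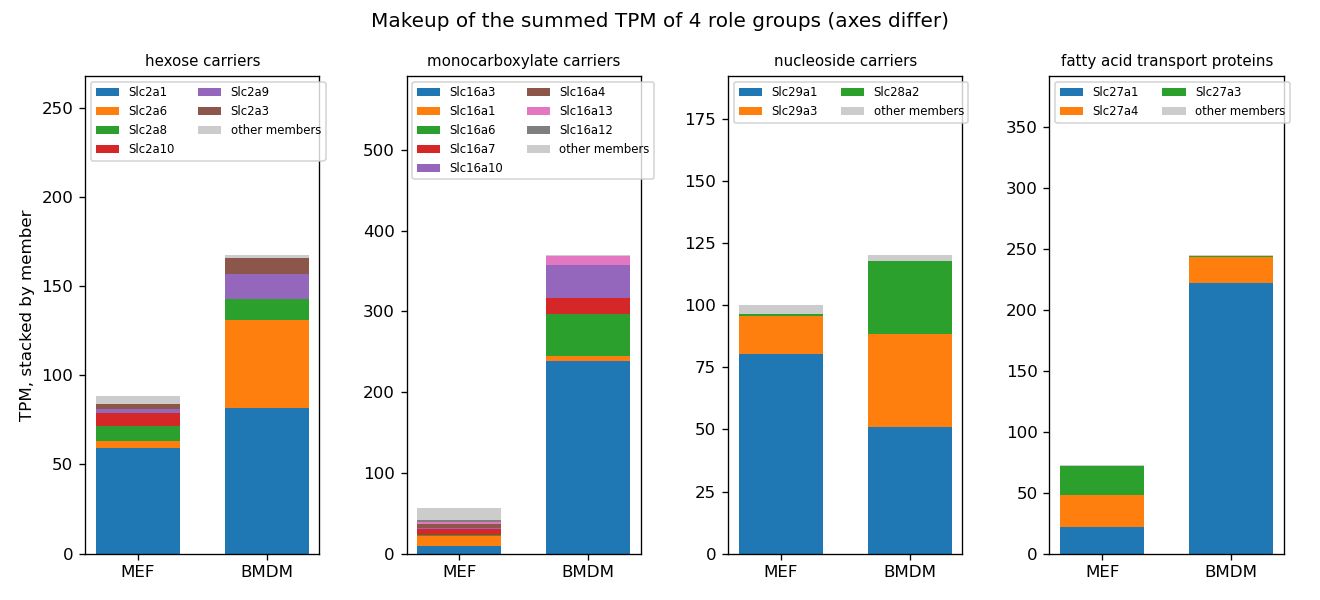
TPM of each gene, stacked within 4 role groups for the fibroblast (MEF) and macrophage (BMDM) libraries, with genes under 4% of the sum in both libraries, and 1 gene not reported here, pooled as other members and a separate vertical axis for each group. Slc16a3 fills 64.4% of the monocarboxylate bar and Slc27a1 90.6% of the fatty acid bar in BMDM, and neither leads its bar in MEF.

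The nucleoside carriers were led by the same equilibrative carrier in both libraries, and a concentrative carrier appeared in macrophages. Slc29a1, encoding ENT1, stood at 80.5 TPM in MEF and 50.9 in BMDM, and Slc29a3, encoding the lysosomal ENT3, at 15.5 and 37.4 TPM. Neither passed the rule, and their values lay in opposite directions. Slc28a2, encoding the purine-preferring sodium-coupled carrier CNT2, was called higher in BMDM, at 29.5 TPM against 0.460, a difference of 64.1-fold. It made up 24.5% of the nucleoside carrier sum there and 0.459% in MEF. Slc29a2 was at 3.67 and 2.22 TPM in MEF and BMDM. The other members, Slc28a1, Slc28a3 and Slc29a4, stayed at or below 0.327 TPM.

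Of 12 chosen nucleoside enzymes, 11 reached 5 TPM and 1 was called in each direction. Entpd1, encoding the surface enzyme CD39 that degrades extracellular ATP, was called higher in BMDM at 48.7 TPM against 1.89. Cda, encoding cytidine deaminase, was called higher in MEF at 10.6 TPM against 0.266. Pnp, encoding purine nucleoside phosphorylase, was at 323 TPM in BMDM and 88.3 in MEF, and Ada, encoding adenosine deaminase, at 3.83 and 17.04 TPM. Both were short of the limit.

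The group called nucleotide sugar carriers here had the smallest differences. It was formed by symbol, and some of its genes, such as Slc35b1, encode carriers of other substrates. Of 24 genes of Slc35a to Slc35f, 18 reached 5 TPM, 17 of them in both libraries, beside 8363 of all 11191 genes at 5 TPM. None of the 18 was called, beside 23.1% of all genes. Their log2 ratios ran from -1.18 to 1.28, and their sums were 738 TPM in MEF and 749 TPM in BMDM. With a 2-fold threshold, 2 were called in each direction. No gene of the group was called under either rescaling. Without this group, set aside after its values were seen, 20 of 38 transporter genes at 5 TPM were called, or 52.6%. That share had to rise, because the group set aside held no call.

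Slc35a4 and Slc35b1 were highest in MEF, at 116 and 89.2 TPM, and nearly level in BMDM at 111 and 86.3. Slc35b1 encodes an ATP carrier of the endoplasmic reticulum. Slc35f6 and Slc35c2 were at 107 and 92.8 TPM in BMDM and 53.5 and 43.7 in MEF. Further members were named after their values were seen. Slc35a2, encoding the UDP-galactose carrier, was at 72.6 TPM in MEF and 29.3 in BMDM, and Slc35a1, encoding the CMP-sialic acid carrier, at 35.9 and 16.03 TPM. Slc35b2, encoding a carrier of the sulfate donor PAPS, was at 62.2 and 38.8 TPM, and Slc35c1, encoding the GDP-fucose carrier, at 15.6 and 25.9 TPM. The other 10 genes at 5 TPM, Slc35a3, Slc35a5, Slc35b3, Slc35b4, Slc35d1, Slc35d2, Slc35e1, Slc35e3, Slc35e4 and Slc35f5, lay between 4.78 and 43.5 TPM. Slc35d3, Slc35f1, Slc35f2, Slc35f3 and Slc35f4 stayed at or below 0.436 TPM.

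The enzymes that make the nucleotide sugars and PAPS were higher in value in MEF for 15 of 19 chosen genes. Over all genes detected at 1 TPM, 8411 of 13606 were higher in value in MEF. All 19 enzyme genes reached 5 TPM and Gfpt2 alone was called, higher in MEF at 5.55 TPM against 0.101. It encodes an enzyme of hexosamine synthesis, and the sister gene Gfpt1 stood at 30.3 and 15.0 TPM. Ugdh, needed for the glucuronic acid of proteoglycan chains, was at 136 TPM in MEF and 60.0 in BMDM. Gne, which starts sialic acid synthesis, was at 33.7 and 10.6 TPM, and Cmas, which activates sialic acid, at 26.6 and 62.6 TPM. Papss2, which makes PAPS, was at 29.4 and 7.54 TPM, short of the limit with a log2 ratio of 1.83. These 4 were not called, and Cmas lay in the direction opposite to the others. The log2 ratios of the 19 genes ran from -1.20 to 2.57 with a median of 0.87, beside 0.28 for all detected genes.

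The peptide carriers held the widest difference of all 144 genes. Slc15a3, encoding the lysosomal histidine and peptide carrier PHT2, stood at 544 TPM in BMDM and 0.414 TPM in MEF, a difference of 1314-fold, and ranked 301 among all genes of the macrophage library. Its locus is chromosome 19, 10839727 to 10859362, plus strand (GRCm38, ENSMUSG00000024737). It overlaps Tmem132a on the opposite strand over 1541 bases. Tmem132a was at 51.9 TPM in MEF, where Slc15a3 was nearly absent, and 59.9 in BMDM. The paralog Slc15a4, encoding PHT1 of the same compartment, was level at 37.6 TPM in MEF and 43.8 in BMDM. The epithelial peptide carrier genes Slc15a1 and Slc15a2 did not exceed 0.248 TPM, and Slc15a5 was listed at 0.

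PHT1 and PHT2 are known to carry bacterial muropeptides out of endosomes and to act beside the endosomal Toll-like receptors. Of the 5 chosen peptide and nucleic acid sensing genes, Tlr7 and Tlr9 were called higher in BMDM, at 77.4 TPM against 0.0750 and 5.98 against 0.0272. The muropeptide sensor gene Nod2 was at 3.59 TPM in BMDM and 0.0917 in MEF and stayed under the minimum. Its sister Nod1 was at 3.42 and 5.33 TPM, and the shared adaptor kinase gene Ripk2 at 13.3 and 18.3 TPM, and neither was called.

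Of 10 vitamin carrier genes, 5 reached 5 TPM, and 2 were called, both higher in BMDM, beside 8.77% of all genes on that side. Slc23a2, encoding the ascorbate carrier SVCT2, was called higher in BMDM at 51.4 TPM against 11.7, with a log2 ratio of -2.05 close to the limit. Slc46a3, encoding a lysosomal carrier, was called higher in BMDM at 9.12 TPM against 1.07. Slc19a2, encoding the thiamine carrier THTR1, was at 30.2 TPM in MEF and 7.44 in BMDM, with a log2 ratio of 1.89 just under the limit. It passed the rule with a pseudocount of 0.1. The folate carrier genes Slc19a1 and Slc46a1 lay in opposite directions without being called. They were at 18.0 and 8.68 TPM in MEF and 11.5 and 18.4 in BMDM. Slc19a1 overlaps Col18a1 on the opposite strand over 8825 bases. Col18a1 was at 70.7 TPM in MEF and 7.67 in BMDM, and whether strand was used in quantification is not known. Slc19a3, Slc23a1, Slc23a3, Slc23a4 and Slc46a2 stayed at or below 0.278 TPM. Of 12 chosen folate and thiamine genes, Folr2 alone was called, higher in BMDM at 168 TPM against 1.83. It encodes the folate receptor of macrophages, and Tyms, encoding thymidylate synthase, was at 101 TPM in MEF and 62.3 in BMDM without a call.

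The fatty acid transport proteins were close to evenly mixed in fibroblasts and dominated by 1 gene in macrophages. Slc27a1, encoding FATP1, stood at 222 TPM in BMDM and 22.1 TPM in MEF, a difference of 10.0-fold. Slc27a3, encoding FATP3, was at 23.7 TPM in MEF and 1.04 in BMDM, a difference of 22.7-fold in the opposite direction. Slc27a4, encoding FATP4, was level at 25.7 and 21.6 TPM. In MEF the 3 genes held 30.5%, 32.6% and 35.4% of the family sum, and in BMDM 90.6%, 0.425% and 8.82%. The liver forms Slc27a2 and Slc27a5 and the form Slc27a6 stayed at or below 0.853 TPM.

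Of 9 chosen genes of fatty acid binding and activation, Cd36 and Fabp5 were called higher in BMDM and none in MEF. Cd36, encoding a scavenger receptor that takes up lipids, was at 486 TPM against 2.27. Fabp5 was at 1489 TPM against 157, while the paralogs Fabp4 and Fabp3 were at 76.1 and 45.2 TPM in BMDM and 79.9 and 130 TPM in MEF. The acyl-CoA synthetase genes Acsl1, Acsl3, Acsl4 and Acsl5 were all higher in value in BMDM without a call, with Acsl5 highest at 95.5 TPM against 39.6.

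The vesicular carriers of Slc17a were represented by 2 genes. Slc17a5, encoding the lysosomal sialic acid carrier sialin, was at 28.6 TPM in BMDM and 13.4 in MEF and was not called. Slc17a9, encoding the vesicular ATP carrier VNUT, was called higher in BMDM at 10.5 TPM against 1.06. The genes of neuronal glutamate vesicles, Slc17a6, Slc17a7 and Slc17a8, stayed at or below 0.423 TPM. The neighbouring genes Slc17a1, Slc17a2, Slc17a3 and Slc17a4, which lie on chromosome 13 between 23806993 and 23915009, were listed at 0 in both libraries.

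The organic ion carriers were mostly under the detection limit, and 4 of the 7 at 5 TPM were called, beside 23.1% of all genes. Of 43 genes of Slc22a, Slc47a and Slco, 31 stayed under 1 TPM, 17 of them listed at 0 in both. None reached 5 TPM in both libraries, beside 8363 of all 11191 genes at 5 TPM in either. Slco2a1, Slco3a1 and Slc22a17 were called higher in MEF and Slco2b1 in BMDM. Slco3a1 stood at 19.04 TPM in MEF and 0.910 in BMDM. Slc22a17, encoding a reported receptor for the iron-binding protein lipocalin-2, was at 9.29 TPM against 0.0874. With Slco2a1, whose values are given with its promoter, these 3 genes made up the fibroblast side.

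Slc22a4, encoding the ergothioneine carrier OCTN1, was at 10.8 TPM in BMDM and 1.96 in MEF, and its log2 ratio of -1.99 lay just outside the rule. It was called higher in BMDM under both rescalings. Of its neighbours on chromosome 11, the carnitine carrier gene Slc22a5 was at 6.71 TPM in BMDM and 4.39 in MEF, and Slc22a21, which lies 2791 bases from Slc22a4, at 0.648 and 3.01. These 3 are close paralogs, and how reads were shared among them is not known. Slc22a15 was at 5.45 TPM in MEF and 3.10 in BMDM. The kidney and liver carrier genes Slc22a2, Slc22a6, Slc22a7, Slc22a8 and Slc22a12 did not exceed 0.0289 TPM, and the drug exporters Slc47a1 and Slc47a2 did not exceed 0.274.

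Of 5 chosen genes that make, clear or export prostaglandins, all at 5 TPM or more, 3 were called higher in MEF and none in BMDM. Over all genes at 5 TPM, 14.3% were called higher in MEF and 8.77% in BMDM. The list was chosen with earlier results of these data known. Its 3 called genes were Ptgs2, Ptges and Hpgd, and the prostaglandin carrier gene Slco2a1 was also called higher in MEF. Ptgs2, encoding the inducible cyclooxygenase, was at 42.5 TPM against 0.589. Ptges, encoding prostaglandin E synthase, was at 12.0 TPM against 2.05 and lay close to the limit, with a log2 ratio of 2.09. Hpgd, encoding the enzyme that inactivates prostaglandins after uptake, was at 15.9 TPM against 0.732. Ptgs1, encoding the constitutive cyclooxygenase, was at 8.39 TPM in MEF and 4.69 in BMDM and was not called. Abcc4, encoding a prostaglandin exporter, was at 4.46 TPM in MEF and 9.39 in BMDM and was not called. Of the 7 chosen choline and carnitine genes, set beside Slc5a7 and Slc22a5, only Cpt1c was called, at 44.7 TPM in MEF and 0.303 in BMDM.

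Over all 91 chosen partner genes, 83 reached 5 TPM, of which 9 were called higher in MEF and 8 in BMDM, together 20.5%. That share was near the 23.1% of all genes, whereas it was 35.7% for the transporter genes themselves.

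**Figure D3:**
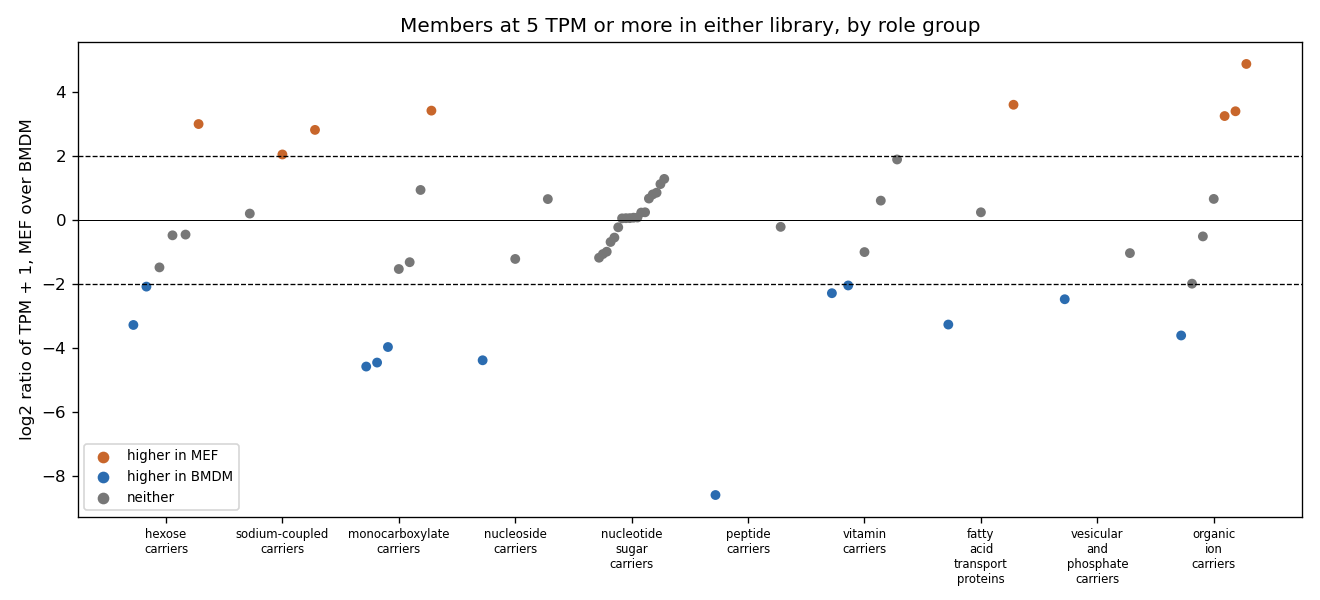
Log2 ratio of TPM + 1, MEF over BMDM, of the 56 transporter genes at 5 TPM or more in either library, by role group, with dashed lines at the 4-fold limits. The 18 nucleotide sugar carriers lie between -1.18 and 1.28, and every other group has at least 1 gene past a dashed line.

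**Figure D4:**
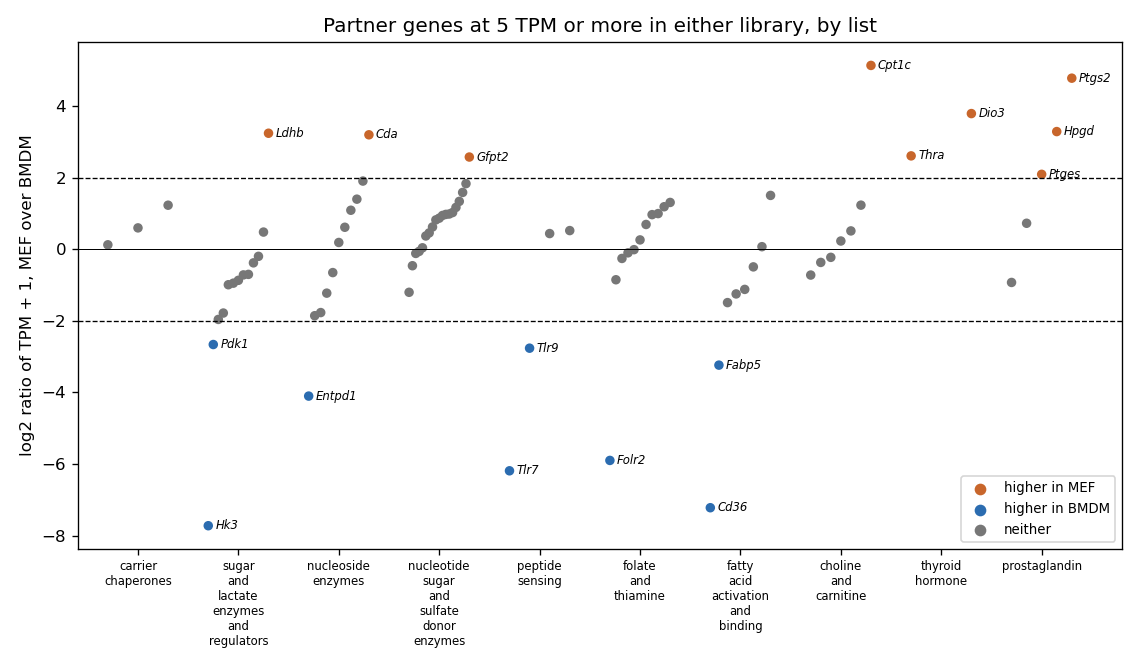
Log2 ratio of TPM + 1, MEF over BMDM, of the 83 partner genes at 5 TPM or more in either library, by list, with called genes labelled and dashed lines at the 4-fold limits. Calls lie on the MEF side only in the prostaglandin, thyroid hormone, choline and carnitine, and nucleotide sugar and sulfate donor lists. They lie on the BMDM side only in the peptide sensing, folate and fatty acid lists. The choline, donor and folate lists have 1 call each.

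The remaining detected genes were few. There were 13 that lay between 1 and 5 TPM at their highest, among them Slc16a12 at 2.37 TPM and Slc22a23 at 1.09 TPM in MEF, listed at 0 and at 0.0352 in BMDM. Slc5a11 was the reverse, at 1.22 TPM in BMDM and listed at 0 in MEF. Slco4a1 was at 4.91 TPM in BMDM and 2.31 in MEF, Slc22a18 at 2.81 and 3.14, and Slc35e2 at 4.03 and 3.93. The 75 genes that were not detected had values up to 0.853 TPM, and 30 of them were listed at 0 in both libraries. A listed 0 in such a table can be a failed estimate, and it does not show that the gene is silent.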

How the data were processed

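Poly(A) RNA libraries of both cell kinds were sequenced in paired reads, per the labels' protocols. Quantification used kallisto 0.43.1 with GRCm38, per the submitters' processing notes. The sources used here do not give the transcript set, how transcripts were joined into genes, or whether strand was used. The deposited file names no unit, and its values were taken as TPM because they are non-negative, not whole and sum to 999545 and 999609 in the 2 columns.

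Rows sharing a symbol were added, which turned 34456 rows into 34295 genes. Date-like symbols were kept apart by description. The member Slc22a12 stood on 2 rows, both at 0. Coordinates are from GENCODE M21 (GRCm38), which matched all 144 member symbols, and promoters from RefSeq (GRCm38.p6). Python 3.11.15, pandas 2.3.3 and numpy 2.4.6 were used.

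A call needed a log2 ratio of TPM plus 1 of at least 2 in size and 5 TPM in the higher library. The rule was tested on simulated data. Named were, in each of 10 role groups, up to 6 called genes per direction with the highest TPM and up to 4 uncalled genes at 5 TPM or more. All members of Slc15a, Slc19a, Slc23a, Slc27a, Slc28a and Slc29a could be named, and other members and the named partner genes were chosen after their values were seen. The members, partner lists and markers were chosen with earlier results of these data known. A few of the genes are counted but not reported here by name. No test was possible, because each group had 1 library. Calls were repeated with 0.1 or 5 added to TPM, with the minimum at 1 TPM, at 10 TPM or dropped, at 2-fold and 8-fold, under 2 rescalings, and from the highest single row of a symbol.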

Additional observations from a re-analysis of the deposited data

How the results depend on the processing

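Of the 20 called transporter genes, 10 kept their call under all 10 alternatives, 3 of them higher in MEF (Slc27a3, Slco2a1 and Slco3a1) and 7 in BMDM (Slc2a6, Slc16a3, Slc16a6, Slc16a10, Slc28a2, Slc15a3 and Slc27a1). The other 10 were lost with a pseudocount of 5, and some of them also with a minimum of 10 TPM, an 8-fold threshold or, for Slc5a3, median-of-ratios scaling. No called gene changed direction under any of the 10 alternatives.

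The counts of 8 transporter genes called higher in MEF and 12 in BMDM became 3 and 7 with a pseudocount of 5, and the former became 4 with a minimum of 10 TPM and 5 with an 8-fold threshold. With a 2-fold threshold 21 were called higher in BMDM. Partner genes called higher in MEF numbered 4 with a pseudocount of 5 and 22 with a 2-fold threshold, which also gave 17 in BMDM. The median log2 ratio of the transporter genes was -0.47 over those at 10 TPM or more. It was -0.12 under median-of-ratios scaling, beside 0.11 for all detected genes. It was -0.071, beside 0.16, after rescaling to a total that leaves out mitochondrial genes and each library's top 50. In all 10 alternatives the share of transporter genes called was above that of all genes tested in the same way, from 14.6% against 8.20% with no minimum to 57.1% against 38.7% with the 2-fold threshold. The gap was smallest with a pseudocount of 5, at 17.9% against 13.8%. These shares join both directions. Taken alone, the BMDM share was above that of all genes in all 10 alternatives, whereas the MEF share was below in several. No paired analysis was possible because each group had 1 library. Read depth is unknown, so the precision of values near 5 TPM cannot be given.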
